A study of Pseudotaxus chienii with 9 samples.

Results

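The comparison of leaves after 2 days of methyl jasmonate with leaves after 1 day rested on 6 of the 9 libraries of the series, 3 for each day, and on all 26827 genes of the deposited table. The libraries were taken by their labels alone. The plant was Pseudotaxus chienii, a yew relative, and its leaves were labelled MeJA for 2 days, MeJA for 1 day or CK, with 3 libraries of polyA RNA in each group. The labels give no dose, plant age or genotype. They do not say whether CK leaves received a mock treatment or when they were taken, and they do not say if each library is a plant of its own. The p-values therefore speak of the spread among libraries alone, and that spread may be technical. Libraries are called here by day and by the number in their titles, so that day 2 library 2 is the second library of the 2-day group.

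Methyl jasmonate is a volatile ester of jasmonic acid, a hormone of wounding and of defence against herbivores. In plant cells the active form, jasmonoyl-isoleucine, leads to the destruction of JAZ repressors and so frees MYC-type transcription factors. Responses to a single hormone dose change with time, as early transcription factors give way to the enzymes they control and as the hormone is oxidised. In yews the taxane pathway, which ends in paclitaxel, is known to respond to methyl jasmonate. The direct comparison of the days asked which functions differed between the second and the first day, and which differences came from 1 library of a day.

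Total estimated counts ran from 48893949 to 58703021 per library, and 22384 genes passed the filter on low counts and were tested. The leaf label was checked against nuclear photosynthesis genes. Rubisco activase (PchiChr11G319070) had 2470, 535 and 2590 FPKM in day 2 libraries 1 to 3, against 4090, 687 and 2770 FPKM in day 1 libraries 1 to 3, and 4840, 4960 and 5470 FPKM in CK libraries. FPKM counts fragments per length of gene and per depth of library. MYC2a (PchiChr2G047860), a transcription factor at the centre of jasmonate signalling, had 40.1, 41.1 and 40.5 FPKM at day 2, against 28.9, 39.3 and 36.1 FPKM at day 1, and 7.26, 9.9 and 5.19 FPKM in CK leaves. All 6 treated libraries lay above CK for this gene.

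Library 2 of each day stood apart from the other treated libraries. Of all genes in the table, 532 were higher and 263 lower in day 2 library 2 than in the other 5 treated libraries by at least 1 on the log2(FPKM + 1) scale. In day 1 library 2 these counts were 1071 genes higher and 986 genes lower. In each of the other 4 treated libraries no more than 150 genes stood above and no more than 26 stood below the rest. In a principal component analysis of all 9 libraries, day 1 library 2 lay at 207.1 on the second component, which held 24.2% of the variance, and the other libraries lay between -82.9 and 27. The nature of the replicate numbers is not given, and many of the differences below are therefore set beside their values without both of these libraries, as differences of log2 CPM (counts relative to the scaled library size).

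**Figure D1:**
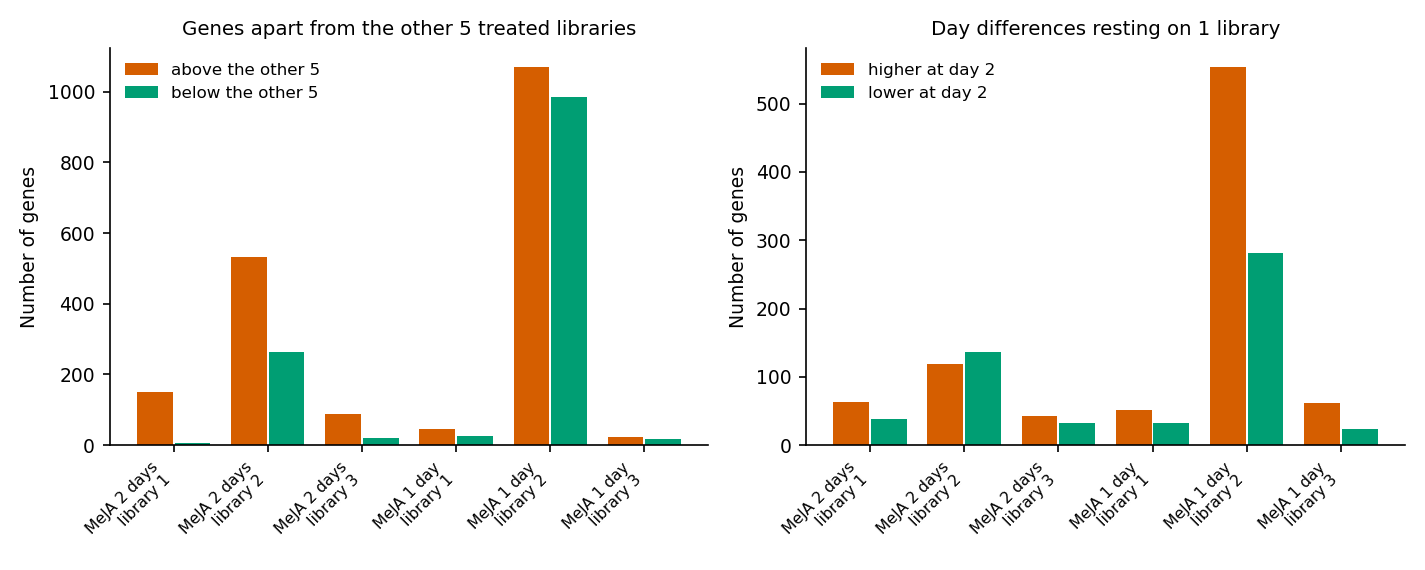
Left, number of genes in each treated library at least 1 above or below the other 5 on the log2(FPKM + 1) scale. Right, number of genes whose day 2 minus day 1 difference of at least 1 on the log2 scale rests on that library. A gene can rest on more than 1 library and is then counted for each. Day 1 library 2 has the tallest bars in both panels, with 1071 genes above and 986 below the other libraries, and day 2 library 2 comes next with 532 and 263.

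Across all genes, no difference between the days passed the test. edgeR's quasi-likelihood F test with Benjamini-Hochberg adjustment called 0 genes higher and 0 genes lower at day 2 (0% of 22384 in each direction), and its lowest adjusted p was 0.247. At an unadjusted p under 0.05 there were 484 genes higher (2.16%) and 465 lower (2.08%) at day 2, together 949 genes or 4.24% of those tested. DESeq2, run as an alternative, called 44 genes higher (0.200%) and 28 lower (0.127%) at an adjusted p under 0.05, of 21966 genes to which it gave one. The 3 libraries of day 2 did not overlap with the 3 of day 1 for 63 of these 72 genes. Over all genes tested, 950 (4.24%) were higher in every day 2 library than in every day 1 library, and 785 (3.51%) were lower. These shares are the background for the counts of genes without overlap below, which were taken on log2 CPM.

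Many of the large differences between the days came from 1 library. The mean log2 CPM of 1972 genes (8.81%) was at least 1 higher at day 2, and that of 896 genes (4.0%) at least 1 lower. A difference was said to rest on 1 library where it was below 0.5 or of the opposite sign without that library. By this rule 119 of the higher genes (6.03%) and 136 of the lower genes (15.2%) rested on day 2 library 2, which is 0.532% and 0.608% of all genes tested. Day 1 library 2 carried 554 of the higher genes (28.1%) and 281 of the lower genes (31.4%), or 2.47% and 1.26% of all genes tested. Each of the other 4 treated libraries carried 43 to 63 of the higher genes (0.192% to 0.281% of all tested) and 23 to 38 of the lower genes (0.103% to 0.170%). With all 6 libraries considered in turn, 781 of the higher genes (39.6%) and 443 of the lower genes (49.4%) rested on at least 1 of them. A difference of at least 1 remained without day 2 library 2, without day 1 library 2 and without both for 481 of the higher genes (24.4%) and 213 of the lower genes (23.8%).

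Heat shock genes were prominent among the genes higher at day 2 whose libraries did not overlap. Heat shock proteins are chaperones: the small HSP20 proteins hold unfolding proteins in solution, HSP70 and HSP90 refold and mature them, and ClpB-type proteins pull aggregates apart. Of the 44 genes that DESeq2 called higher at day 2, 13 (29.5%) carried the gene ontology term for response to heat, which 0.63% of the genes tested carried, and 8 belonged to the HSP20 family by KEGG orthology. The table held 43 HSP20 genes, of which 42 were tested, and 21 of them (50%) were higher in every day 2 library than in every day 1 library, while 0 were lower throughout. The table held 39 HSP70 genes, and among the 30 tested 6 (20%) were higher without overlap and 0 lower. All 3 HSP90 genes were higher without overlap. These families were singled out after the values had been seen, and their counts are a description.

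The HSP20 gene PchiChr8G227420 (chromosome 8, block 1, 199677177 to 199678217, plus strand, in the table's coordinates) had the lowest DESeq2 adjusted p of the whole comparison. Its values were 70.3, 86.0 and 156 FPKM at day 2, against 16.1, 16.0 and 20.7 FPKM at day 1, and 65.1, 57.8 and 78.1 FPKM in CK leaves. Day 2 and CK values overlapped, and all 3 day 1 libraries lay far below both. The day 2 mean was 5.84-fold the day 1 mean (log2 difference 2.55, SE 0.31), with an adjusted p of 0.362 in edgeR and 3.18e-10 in DESeq2. Without library 2 of either day the difference of log2 CPM was 2.48. The gene's description in the table is only "unknown", its family comes from KEGG orthology, and it was picked after its values were seen.

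PchiChr8G227500, described as a low molecular weight heat-shock protein, lies farther along the same chromosome (block 1, 201041599 to 201042696, minus strand). Its values were 43.0, 68.4 and 48.8 FPKM at day 2, against 17.7, 10.9 and 10.8 FPKM at day 1, and 59.7, 102 and 147 FPKM in CK leaves. Day 2 exceeded day 1 in every library, and 2 of 3 CK values exceeded every treated library. The log2 difference between the days was 2.03 (SE 0.41), with an adjusted p of 0.954 in edgeR and 0.00333 in DESeq2, and it was 1.69 without the libraries numbered 2. The class I small heat shock protein PchiChr7G193160 followed the same order, with 24.1, 28.8 and 22.9 FPKM at day 2, against 10.9, 6.0 and 5.25 FPKM at day 1, and 34.9, 63.8 and 67.4 FPKM in CK leaves. The mitochondrial small heat shock protein PchiChr7G203800 had 186, 254 and 132 FPKM at day 2, against 87.1, 29.9 and 65.0 FPKM at day 1, and 128, 118 and 177 FPKM in CK leaves. For both genes the days did not overlap, with log2 differences of 1.77 (SE 0.38) and 1.68 (SE 0.43), and of 1.59 and 1.02 without the libraries numbered 2.

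Among the HSP70 genes, heat shock cognate 70 kDa protein 2 (PchiChr11G317100) was the most abundant whose days did not overlap. It had 354, 672 and 434 FPKM at day 2, against 112, 153 and 123 FPKM at day 1, and 466, 457 and 505 FPKM in CK leaves. The day 2 mean of 487 ± 165 FPKM (SD, n = 3) was close to the CK mean of 476 ± 25.5 FPKM (SD, n = 3), and the day 1 mean was 129 ± 20.8 FPKM (SD, n = 3). The log2 difference between the days was 1.92 (SE 0.37), with an adjusted p of 0.954 in edgeR and 0.000177 in DESeq2, and it was 1.70 without the libraries numbered 2. A pair of neighbouring copies on chromosome 9 differed more, but with a wider spread. PchiChr9G260130 had 78.1, 276 and 116 FPKM at day 2, against 15.6, 43.4 and 22.1 FPKM at day 1, and 59.2, 73.7 and 98.2 FPKM in CK leaves. PchiChr9G260120 had 74.5, 255 and 95.2 FPKM at day 2, against 13.7, 42.0 and 18.8 FPKM at day 1, and 58.2, 67.5 and 92.5 FPKM in CK leaves. In this pair library 2 was the highest of each day, and reads of such copies may be shared between them. Without both of those libraries their differences were 2.32 and 2.35.

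The ClpA/B family gene PchiChr12G335650 had 67.0, 89.2 and 71.8 FPKM at day 2, against 30.0, 37.6 and 41.7 FPKM at day 1, and 78.0, 68.1 and 64.0 FPKM in CK leaves. Again day 2 and CK levels overlapped and day 1 lay below both, with a log2 difference between the days of 1.06 (SE 0.24) and of 0.93 without the libraries numbered 2. The 3 HSP90 genes did not differ alike. PchiChr4G112050, described as an HSP90 family chaperone, had 37.8, 45.6 and 34.8 FPKM at day 2, against 24.2, 3.24 and 19.6 FPKM at day 1, and 49.3, 52.8 and 49.8 FPKM in CK leaves. Its log2 difference in the fit was 1.36 (SE 0.58), and the difference of log2 CPM was 1.74 with all libraries, 0.88 without day 1 library 2 and 0.70 without both libraries numbered 2. PchiChr9G273900, described as heat shock protein 81-1, had 251, 283 and 195 FPKM at day 2, against 124, 135 and 166 FPKM at day 1, and 215, 160 and 194 FPKM in CK leaves. Its fitted log2 difference of 0.78 (SE 0.27) and that of the third gene, PchiChr5G154420, of 0.72 (SE 0.31) were 0.59 and 0.42 without those libraries. Mitochondrial HSP70 (PchiChr6G166600) had 16.0, 13.4 and 13.8 FPKM at day 2, against 11.5, 9.13 and 10.7 FPKM at day 1, and 22.8, 22.0 and 22.3 FPKM in CK leaves. That gene remained below CK on both days, and its difference between them was 0.39 without the libraries numbered 2.

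**Figure D2:**
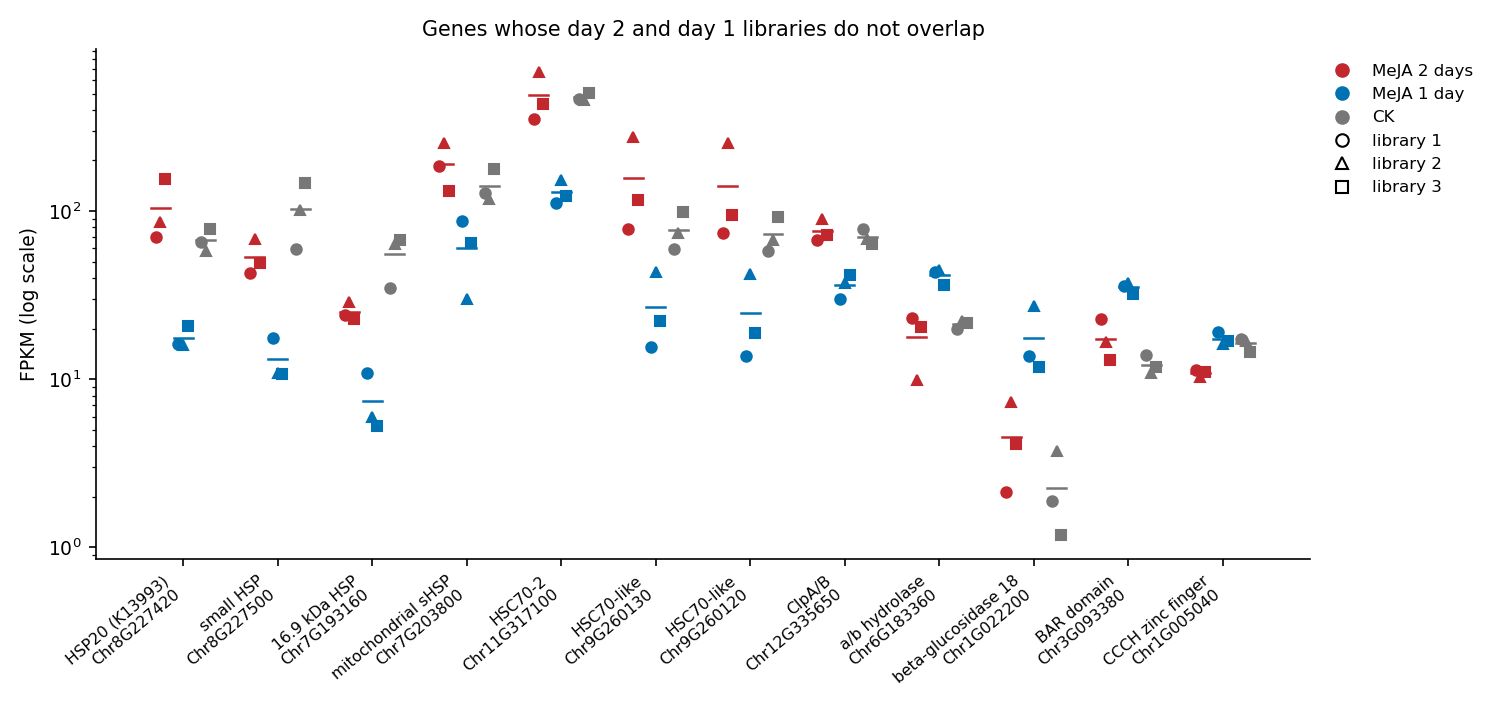
FPKM on a log scale for 12 genes whose day 2 and day 1 libraries do not overlap, 8 of them heat shock genes at the left and 4 genes lower at day 2 at the right; each point is 1 library (marker shape gives the library number) and each line a group mean. In heat shock cognate 70 kDa protein 2 the day 2 points sit at 354 to 672 FPKM, the day 1 points at 112 to 153 FPKM and the CK points at 457 to 505 FPKM.

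Part of the heat shock difference came from library 2 of day 1. The median difference of the 42 HSP20 genes was 1.30 on the log2 scale with all 6 libraries, 1.16 without day 2 library 2, 0.81 without day 1 library 2 and 0.59 without both, beside a median over all genes of 0.00 to within 0.03 in each case. Of these genes 18 stood below the other 5 treated libraries by at least 1 in day 1 library 2, and 5 stood above them in day 2 library 2. For 11 genes a difference of at least 1 remained under each of the 3 omissions. HSP90 and HSP70 genes had medians of 0.75 and 0.40 with all libraries and of 0.59 and 0.28 without both.

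Other HSP20 genes on chromosome 11 showed how the libraries entered. PchiChr11G316630 had 35.0, 165 and 42.7 FPKM at day 2, against 18.6, 1.87 and 16.2 FPKM at day 1, and 14.4, 13.3 and 28.5 FPKM in CK leaves. Its days did not overlap, but its highest and lowest treated values were both from a library 2, and its difference of log2 CPM of 2.90 was 1.12 without them. PchiChr11G315860, the most abundant HSP20 gene, had 920, 1010 and 1610 FPKM at day 2, against 1500, 65.4 and 1050 FPKM at day 1, and 1500, 1790 and 1980 FPKM in CK leaves. Without day 1 library 2 this gene was no higher at day 2 than at day 1.

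Against CK, whose comparisons share libraries with the one between the days, the HSP20 genes had a median log2 difference of 0.38 at day 2 and of -0.94 at day 1. Over all 22384 genes tested edgeR called 915 higher (4.09%) and 192 lower (0.858%) at day 2 than in CK, and 972 higher (4.34%) and 224 lower (1.00%) at day 1. Of the 42 HSP20 genes it called 0 at day 2 in either direction, and 0 higher and 4 lower at day 1. Of 30 HSP70 genes it called 0 at day 2, and 0 higher and 2 lower at day 1. PchiChr11G317100, one of these, had a log2 difference from CK of 0.18 at day 2 (edgeR adjusted p = 0.783) and of -1.73 at day 1 (edgeR adjusted p = 0.0378). The list of heat shock factors and co-chaperones did not share the difference between the days, with 0 of 14 genes without overlap in either direction and a median of -0.02. The broad gene ontology list of protein folding, which takes in many of these chaperones, had 19 of 180 genes (10.6%) higher without overlap and 6 (3.33%) lower, and DESeq2 called 6 of them higher. Its median was 0.03, close to that of all genes.

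MYB transcription factors, which control many branches of secondary metabolism, also held more genes without overlap than the background, with 8 of 72 (11.1%) higher at day 2 and 2 lower. The median difference of the list was 0.38 with all 6 libraries. It was 0.23 without day 1 library 2, 0.19 without day 2 library 2 and 0.16 without both. Of 3 copies described as R2R3MYB13, 2 were higher without overlap. PchiChr9G249560 had 1.42, 4.31 and 1.6 FPKM at day 2, against 0.288, 0.274 and 0.258 FPKM at day 1, and 0.256, 0.12 and 0.0432 FPKM in CK leaves. PchiChr9G249880 had 1.36, 4.35 and 1.76 FPKM at day 2, against 0.226, 0.283 and 0.214 FPKM at day 1, and 0.251, 0.137 and 0.0286 FPKM in CK leaves. In these 2 copies day 1 libraries lay within a narrow range. Every day 1 value of PchiChr9G249560 exceeded every CK value, and those of PchiChr9G249880 overlapped with CK. Every day 2 library lay several-fold above every day 1 library of the same copy. The log2 differences were 3.17 (SE 0.73) and 3.32 (SE 0.80), with DESeq2 adjusted p-values of 0.00668 and 0.0101 and an edgeR adjusted p of 0.954 for both. Without library 2 of either day the differences of log2 CPM were 2.31 and 2.53. Levels of these 2 copies were low, and the copies may share reads. The days of the third copy overlapped, and FPKM summed over all 3 was 11.1, 36.6 and 18.4 at day 2. The sums were 2.76, 5.42 and 17.7 at day 1, and 1.85, 1.02 and 0.644 in CK leaves.

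Other named genes higher at day 2 without overlap were spread over several functions. Dirigent proteins steer the coupling of monolignols into lignans, and the dirigent-like gene PchiChr4G098130 had 1.59, 1.49 and 1.25 FPKM at day 2, against 0.449, 0.458 and 0.501 FPKM at day 1, and 2.04, 2.41 and 3.37 FPKM in CK leaves. The cytochrome P450 gene CYP94D82 (PchiChr3G078150), of a family that oxidises fatty acids and jasmonates, had 0.483, 0.619 and 0.592 FPKM at day 2, against 0.0784, 0.121 and 0.111 FPKM at day 1, and 0.216, 0.122 and 0.125 FPKM in CK leaves. CYP94D82 lay below 1 FPKM in every library, and its log2 difference ran from 0.5 to 2.49 over the alternative settings. Within each day the libraries of both genes lay close together. DESeq2 gave them adjusted p-values of 0.0465 and 0.0282, and edgeR called neither. Without the libraries numbered 2 their differences were 1.41 and 2.03. Histone H2B (PchiChr2G059440), a core protein of chromatin, had 3.61, 3.17 and 3.72 FPKM at day 2, against 1.79, 1.84 and 1.72 FPKM at day 1, and 6.77, 4.45 and 3.57 FPKM in CK leaves. Defensin 4 (PchiChr2G062910), of a family of small antimicrobial peptides, had 3.26, 4.33 and 3.19 FPKM at day 2, against 0.618, 0.0 and 1.67 FPKM at day 1, and 0.448, 0.819 and 2.27 FPKM in CK leaves. The caffeic acid O-methyltransferase PchiChr5G154450, an enzyme of lignin precursors, had 5.4, 5.96 and 11.8 FPKM at day 2, against 3.21, 4.45 and 3.33 FPKM at day 1, and 3.43, 1.84 and 2.12 FPKM in CK leaves. Without the libraries numbered 2 the histone, defensin and methyltransferase genes differed by 1.01, 1.48 and 1.24.

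Counts for cuticle genes depended on the list. In the KEGG pathway for cutin, suberin and wax, the polymers and lipids that seal the leaf surface, 10 of 70 genes tested (14.3%) were higher at day 2 without overlap and 2 were lower. The median difference was 0.48, and it was 0.66 without day 2 library 2, 0.18 without day 1 library 2 and 0.31 without both. A list drawn from descriptions, for lipid, wax and cutin, had 3 of 55 genes (5.45%) higher without overlap and 1 lower, which is near the share over all genes, and a median of 0.21. The P450 gene PchiChr5G136810, described as 86B1-like, a hydroxylase of very long fatty acids in suberin, had 3.5, 2.02 and 2.17 FPKM at day 2, against 1.1, 0.521 and 0.96 FPKM at day 1, and 4.29, 7.64 and 3.1 FPKM in CK leaves. The GDSL esterase gene PchiChr11G317190, of the second list, had 5.19, 2.75 and 2.46 FPKM at day 2, against 1.72, 0.159 and 0.706 FPKM at day 1, and 3.1, 5.19 and 6.64 FPKM in CK leaves. For both genes day 1 held the lowest values of all 3 groups, and the differences between the days were 1.36 and 1.63 without the libraries numbered 2. Against CK the pathway's median was -0.27 at day 2 and -0.68 at day 1.

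Receptor kinases and receptor-like proteins, which sense signals at the cell surface, were more often higher than lower at day 2. Differences were above 0 for 284 of their 380 genes, beside 11141 of 22384 over all genes tested. Without overlap 23 of the 380 (6.05%) were higher, not far from the 4.24% over all genes. Lower without overlap were 5 (1.32%), beside 3.51% over all genes. EIX2 (PchiChr10G276250), named after a receptor that recognises a fungal xylanase in tomato, had 6.26, 4.61 and 5.84 FPKM at day 2, against 2.48, 3.09 and 2.54 FPKM at day 1, and 1.63, 1.88 and 0.93 FPKM in CK leaves. Its log2 difference of 1.01 (SE 0.29) was 1.23 without library 2 of either day. For the list as a whole the median difference of 0.38 depended on day 1 library 2, as it was 0.47 without day 2 library 2, 0.10 without day 1 library 2 and 0.18 without both. The lowest of the 6 treated values was in day 1 library 2 for 193 of the 380 genes. G-type lectin receptor kinases, a subgroup, had 10 of 58 genes (17.2%) higher without overlap and a median of 0.46, which was 0.31 without both libraries.

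Genes lower at day 2 without overlap included hydrolases, signalling proteins and transcription factors. The alpha/beta hydrolase gene PchiChr6G183360 had 23.2, 9.95 and 20.5 FPKM at day 2, against 43.6, 44.9 and 36.5 FPKM at day 1, and 19.8, 22.3 and 21.7 FPKM in CK leaves. The BAR domain gene PchiChr3G093380, of a family that bends membranes, had 22.7, 16.7 and 13 FPKM at day 2, against 35.8, 37.4 and 32.3 FPKM at day 1, and 13.9, 10.9 and 11.9 FPKM in CK leaves. In both genes day 1 was the highest group and day 2 lay nearer to CK. Their log2 differences were -1.28 (SE 0.27) and -1.04 (SE 0.23), with DESeq2 adjusted p-values of 0.0162 and 0.0315 and an edgeR adjusted p of 0.954 for both. Without the libraries numbered 2 they were -0.91 and -1.02.

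Beta-glucosidase 18-like (PchiChr1G022200), a glycoside hydrolase, had 2.14, 7.36 and 4.12 FPKM at day 2, against 13.7, 27.1 and 11.8 FPKM at day 1, and 1.88, 3.74 and 1.18 FPKM in CK leaves. The difference between the days was -2.12 without the libraries numbered 2. Against CK its log2 difference was 1.17 at day 2 (edgeR adjusted p = 0.289) and 3.12 at day 1 (edgeR adjusted p = 0.0397). The jasmonate-oxidising P450 family was also represented here, as CYP94P7 (PchiChr9G254860) had 3.92, 1.41 and 3.99 FPKM at day 2, against 6.54, 20.7 and 6.45 FPKM at day 1, and 0.023, 0.679 and 0.0611 FPKM in CK leaves. Its value in day 1 library 2 exceeded the sum of the other libraries of that day, and the difference of log2 CPM was -0.75 without library 2 of either day. Quinolinate synthase (PchiChr1G033060), an enzyme of NAD synthesis, had 9.28, 7.78 and 10.9 FPKM at day 2, against 19.1, 56.1 and 15.3 FPKM at day 1, and 10.9, 8.65 and 8.41 FPKM in CK leaves. Its difference of log2 CPM of -1.48 was -0.80 without the libraries numbered 2.

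A second pattern among the lower genes was a level below both day 1 and CK. The zinc finger gene PchiChr1G005040 had 11.4, 10.3 and 11.1 FPKM at day 2, against 19.2, 16.1 and 16.8 FPKM at day 1, and 17.4, 17.0 and 14.6 FPKM in CK leaves. Its log2 difference between the days was -0.69 (SE 0.14), with a DESeq2 adjusted p of 0.000299 and an edgeR adjusted p of 0.954. ALG-2 interacting protein X (PchiChr12G320420), which in animals and Arabidopsis works in endosomal sorting, had 47.2, 42.1 and 40.2 FPKM at day 2, against 63.7, 73.5 and 64.5 FPKM at day 1, and 88.7, 68.7 and 65.4 FPKM in CK leaves. Without the libraries numbered 2 the differences of these genes were -0.72 and -0.59. The gene with the lowest edgeR p of all, PchiChr1G015650, has no informative description. Its CK values are not given here, and it is not counted in this pattern. It had 0 counts in every day 2 library, against 47, 69 and 95 counts in day 1 libraries 1 to 3, which is at least 70.3-fold lower at day 2 when 3 counts over the group are taken as the floor. Its edgeR adjusted p was 0.247, and the floor covers counting error only.

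RNA-handling functions were among those lower by small amounts. In the KEGG pathway for the spliceosome, the machine that removes introns, 27 of 275 genes (9.82%) were lower at day 2 without overlap and 12 were higher. The counts were 24 of 268 (8.96%) lower and 3 higher for RNA transport, and 10 of 108 (9.26%) lower and 1 higher for ribosome biogenesis. The median differences were only -0.07, -0.10 and -0.09 with all libraries, and -0.07, -0.10 and -0.06 without library 2 of either day. Without day 1 library 2 alone they were -0.01, -0.08 and -0.08, so that little of the spliceosome difference was left. Members included Mpp10 (PchiChr4G114800), a protein of small-subunit ribosome assembly, with 14.6, 13.1 and 13.8 FPKM at day 2, against 18.3, 18.5 and 20.6 FPKM at day 1, and 17.2, 16.7 and 17.1 FPKM in CK leaves. The nuclear pore protein aladin (PchiChr6G166790) had 7.23, 5.29 and 6.94 FPKM at day 2, against 10.5, 7.82 and 9.49 FPKM at day 1, and 10.9, 10.7 and 9.56 FPKM in CK leaves. These genes differed by -0.49 and -0.53 when the libraries numbered 2 were left out. Under all scalings and tests run on all libraries the 3 medians remained below 0. On FPKM in place of log2 CPM, the counts lower without overlap were 23 (8.36%), 15 (5.6%) and 5 (4.63%) for the 3 pathways. Over all genes tested the count was 635 (2.84%), so ribosome biogenesis lay nearer to that share on FPKM than on log2 CPM. Cytosolic ribosomal proteins themselves had 2 of 75 genes lower and 1 higher without overlap. Such shares were not particular to RNA handling. In the KEGG pathway for lysine degradation, 8 of 50 genes (16.0%) were lower on log2 CPM without overlap and 1 was higher. Its median was -0.19, and -0.16 without library 2 of either day. N-glycan biosynthesis had 7 of 64 genes (10.9%) lower and 1 higher, with a median of -0.04.

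**Figure D3:**
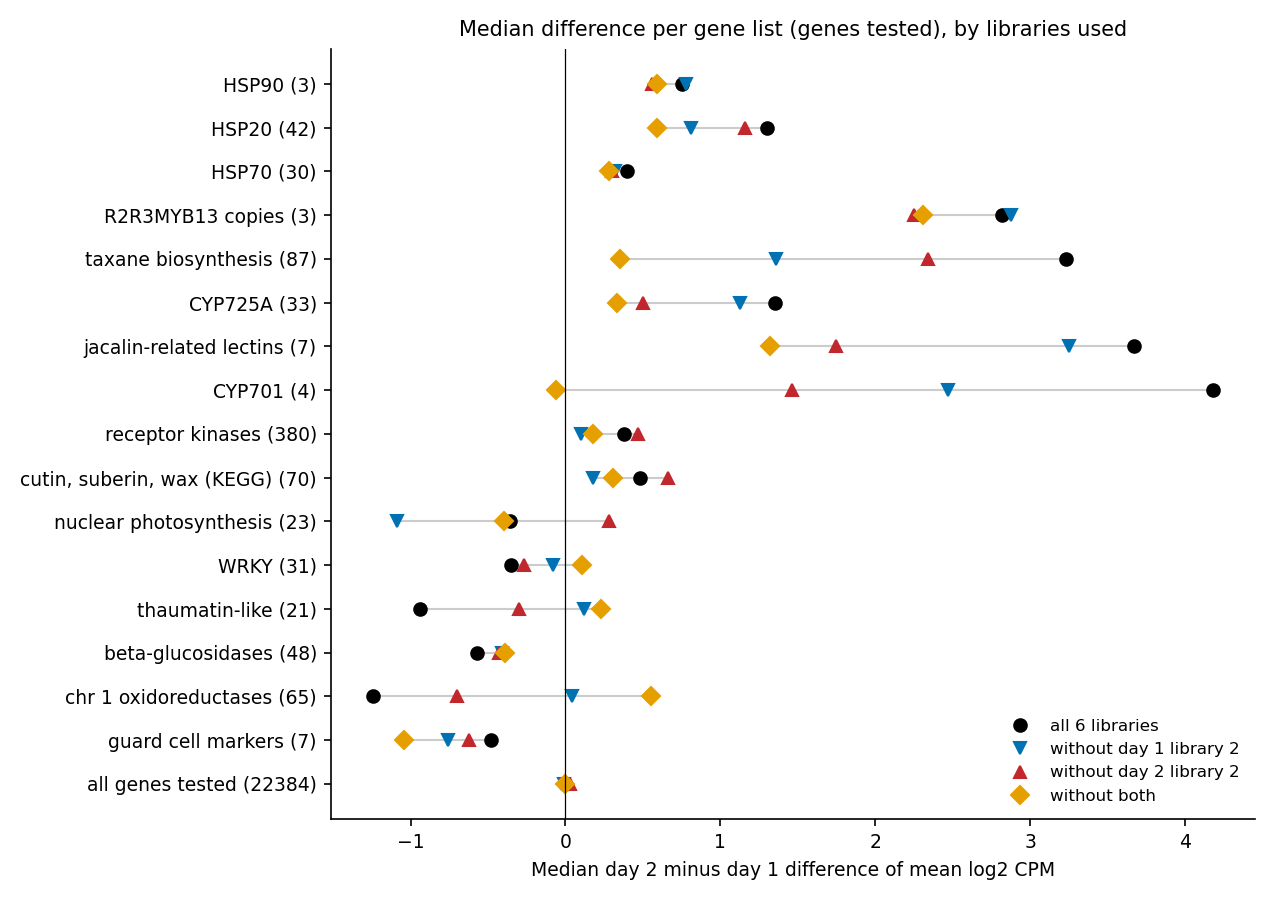
Median day 2 minus day 1 difference of mean log2 CPM over the tested genes of 16 lists and over all genes (numbers of genes in brackets), with all 6 treated libraries, without library 2 of either day and without both. Without both libraries HSP90 stands at 0.59 and the R2R3MYB13 copies at 2.31, the taxane list moves to 0.35 and CYP701 to -0.06, and thaumatin-like proteins and the chromosome 1 oxidoreductases change sign.

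The taxane pathway depended strongly on the libraries numbered 2. Of 108 genes whose descriptions name a taxane step, 87 were tested, and 82 of these had a higher mean at day 2. The median difference of 3.23 became 2.34 without day 2 library 2, 1.36 without day 1 library 2 and 0.35 without both. A difference of at least 1 was seen in 70 genes, of which 2 rested on day 1 library 2 and 5 on day 2 library 2. For 10 of the 70 it remained under each of the 3 omissions, beside 481 of 1972 (24.4%) over all genes. In day 2 library 2, 66 of the 87 genes stood above the other 5 treated libraries by at least 1, and in day 1 library 2, 51 stood below them. The days did not overlap for 1 gene (1.15%), a taxadienol acetyltransferase copy on a scaffold (PchiScaf106G344400). It had 0.592, 16.0 and 1.63 FPKM at day 2, against 0.474, 0.0 and 0.394 FPKM at day 1, and 0.0, 0.0388 and 0.0 FPKM in CK leaves, and its difference was 1.09 without the libraries numbered 2.

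Taxadiene synthase closes the first ring system of the pathway. Its copy PchiChr11G299430 had 27.5, 1160 and 53.3 FPKM at day 2, against 22.7, 0.0 and 47.3 FPKM at day 1, and 0.0, 2.82 and 0.0 FPKM in CK leaves. The taxane 13-alpha-hydroxylase gene PchiChr11G297900, which codes for a P450 of an early oxidation step, had 240, 2970 and 895 FPKM at day 2, against 287, 0.463 and 639 FPKM at day 1, and 0.0, 40.2 and 0.0 FPKM in CK leaves. Libraries 1 and 3 held like values on both days, library 2 was the highest of day 2 and the lowest of day 1, and library 2 was also the highest in CK. Without both libraries the differences of log2 CPM were 0.19 and 0.08. The CYP725A family, which holds the taxane hydroxylases, had a median of 1.35 with all 6 libraries and 0.33 without both.

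Genes outside the taxane list showed the same split. The limonene/borneol synthase PchiChr4G105940, an enzyme of monoterpene formation, had 204, 3250 and 1690 FPKM at day 2, against 368, 0.0304 and 1590 FPKM at day 1, and 0.0, 82.3 and 0.687 FPKM in CK leaves. A PR10 protein gene within the same stretch of gene numbers as the hydroxylases (PchiChr11G298340) had 88.7, 1300 and 423 FPKM at day 2, against 126, 0.0722 and 308 FPKM at day 1, and 0.0, 21.0 and 0.0 FPKM in CK leaves. For both, the difference without the libraries numbered 2 was below 0, at -0.42 and -0.06.

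Other functions were high in day 2 library 2 alone. CYP701 enzymes oxidise ent-kaurene on the way to gibberellins, and CYP701A59 (PchiChr7G202320) had 1.14, 279 and 2.84 FPKM at day 2, against 0.952, 0.0 and 3.28 FPKM at day 1, and 0.0352, 0.0864 and 0.0926 FPKM in CK leaves. The 4 CYP701 genes tested had a median difference of 4.18 with all libraries and of -0.06 without both libraries numbered 2. It was 1.46 without day 2 library 2 and 2.47 without day 1 library 2. All 4 genes were highest in day 2 library 2 and lowest in day 1 library 2 among the treated libraries. By the rule above, 0 of their differences rested on either of these libraries alone. A copy of 12-oxophytodienoate reductase 3 (PchiChr11G302180), an enzyme of jasmonate synthesis, had 0.0, 66.5 and 0.368 FPKM at day 2, against 0.0, 0.0 and 0.439 FPKM at day 1, and was listed at 0 in CK leaves.

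Jacalin-related lectins and a flavonol synthase lay between these cases. The lectin gene PchiChr1G000350, which codes for a carbohydrate-binding protein, had 10.2, 314 and 4.13 FPKM at day 2, against 3.86, 0.796 and 1.49 FPKM at day 1, and 0.0, 0.19 and 0.0 FPKM in CK leaves. The flavonol synthase gene PchiChr6G182970 had 3.1, 159 and 12.5 FPKM at day 2, against 0.545, 0.528 and 2.45 FPKM at day 1, and 0.508, 1.87 and 0.747 FPKM in CK leaves. In both genes the days did not overlap, and day 2 library 2 lay more than 10-fold above every other library. Without the libraries numbered 2 the differences of log2 CPM were 1.32 and 2.35. For the flavonol synthase DESeq2 gave an adjusted p of 0.00157 and edgeR 0.954. The 7 jacalin-related genes had a median of 3.67 with all libraries and 1.32 without both, and 3 copies on chromosome 4 had differences below 0 without both.

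**Figure D4:**
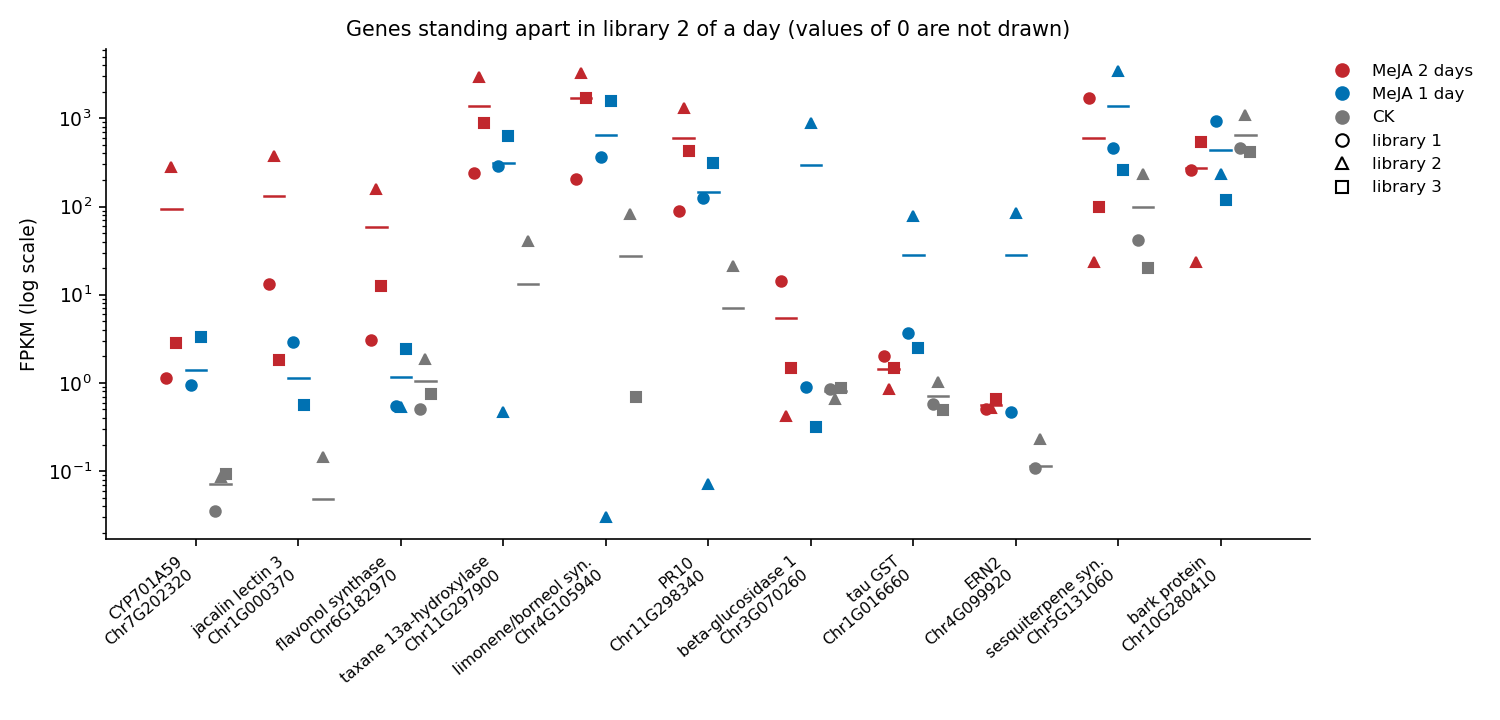
FPKM on a log scale for 11 genes standing apart in library 2 of a day, with markers as in the plot of separated genes; values of 0 are not drawn. The triangles, which mark library 2, lie far from the circles and squares of the same day, as for beta-glucosidase 1 at 886 FPKM in day 1 library 2.

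Some defence and stress genes high in day 1 library 2 were among the genes lower at day 2. The list of defence proteins as a whole had a median difference of -0.01 over 151 genes tested. Of these, 5 (3.31%) were higher and 5 (3.31%) lower at day 2 without overlap. Beta-glucosidase 1 (PchiChr3G070260) had 14.4, 0.422 and 1.47 FPKM at day 2, against 0.89, 886 and 0.314 FPKM at day 1, and 0.857, 0.661 and 0.884 FPKM in CK leaves. The tau class glutathione S-transferase PchiChr1G016660, of a family that conjugates toxic compounds to glutathione, had 2.0, 0.847 and 1.48 FPKM at day 2, against 3.64, 78.1 and 2.49 FPKM at day 1, and 0.584, 1.03 and 0.495 FPKM in CK leaves. The ethylene-responsive factor ERN2 (PchiChr4G099920) had 0.512, 0.52 and 0.653 FPKM at day 2, against 0.467, 83.7 and 0.0 FPKM at day 1, and 0.108, 0.234 and 0.0 FPKM in CK leaves. In each of these genes 1 library of 9 held nearly all of the signal of its day. A copy of ACC oxidase, the last enzyme of ethylene synthesis (PchiChr8G225290), had 131, 149 and 75.0 FPKM at day 2, against 58.2, 2210 and 76.9 FPKM at day 1, and 8.03, 6.83 and 9.95 FPKM in CK leaves. All treated libraries exceeded CK for this gene, but the difference between the days of -0.94 in log2 CPM was 0.53 without the libraries numbered 2.

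Gene families showed the same dependence. Thaumatin-like proteins, which belong to the PR5 group of pathogenesis-related proteins, had a median difference of -0.94 over 21 genes tested. It was 0.12 without day 1 library 2, -0.30 without day 2 library 2 and 0.23 without both. Of these genes 11 stood above the other 5 treated libraries in day 1 library 2, and 0 had days without overlap. In 10 of them day 2 was lower by at least 1, and 9 of these differences rested on day 1 library 2 and 7 on day 2 library 2. A family of 65 tested genes on chromosome 1 described as putative oxidoreductases had a median of -1.24 with all libraries, 0.04 without day 1 library 2 and 0.55 without both, and 40 of its differences rested on day 1 library 2. These genes carry nearly the same description and neighbouring numbers, and may share reads. WRKY factors, regulators of defence genes, had a median of -0.35 over 31 genes, -0.08 without day 1 library 2 and 0.11 without both, and 18 of the 31 were highest in day 1 library 2. Beta-glucosidases as a family had a median of -0.57 over 48 genes and of -0.39 without both libraries, but of 0.14 without day 1 library 1, with 2 genes (4.17%) higher and 3 (6.25%) lower without overlap.

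**Figure D5:**
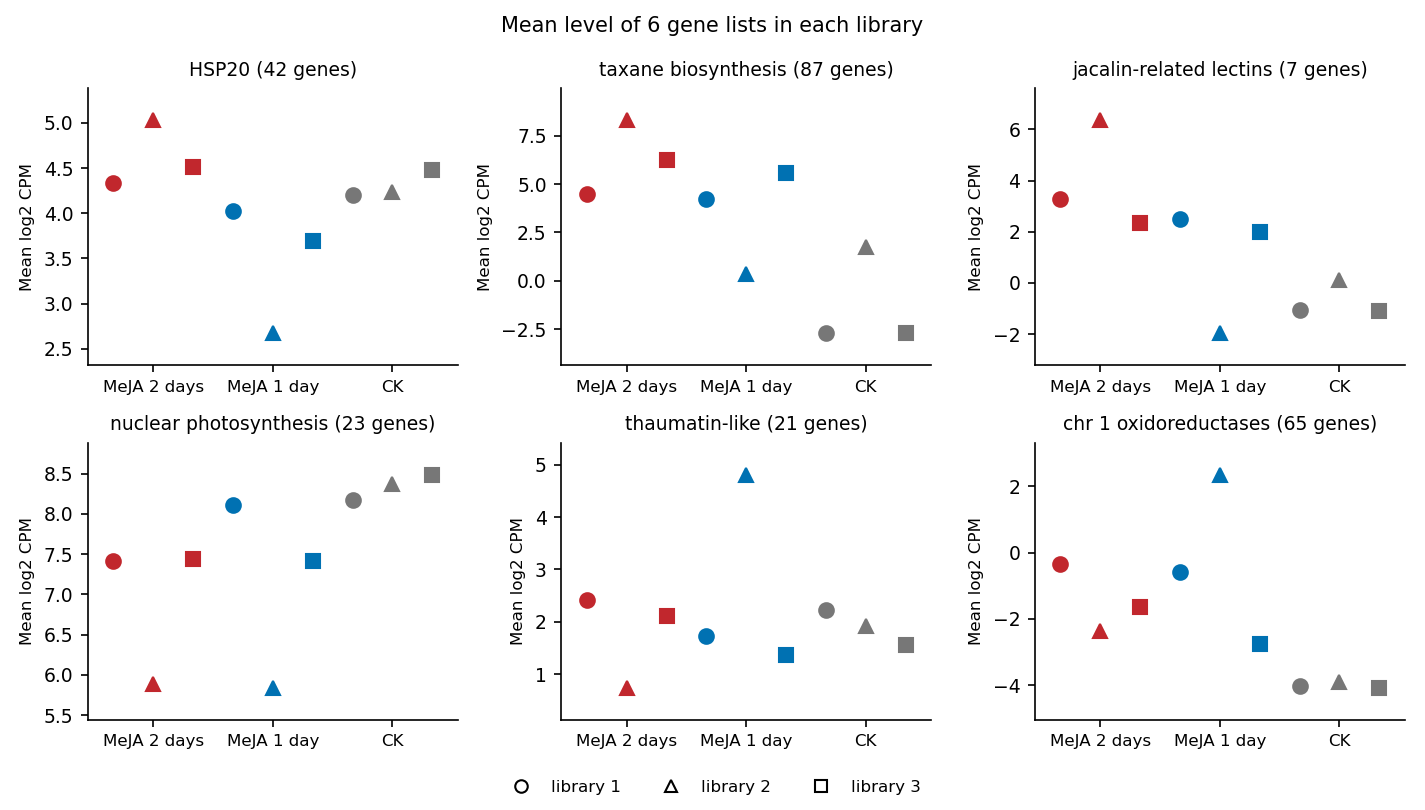
Mean log2 CPM over the tested genes of 6 lists in each of the 9 libraries, with MeJA 2 days at the left, MeJA 1 day in the middle and CK at the right. Day 1 library 2 is lowest of all treated libraries for HSP20, taxane genes and jacalin-related lectins and highest for thaumatin-like proteins and the oxidoreductases, and both libraries numbered 2 are low for nuclear photosynthesis genes, at 5.89 on day 2 and 5.84 on day 1.

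Nuclear photosynthesis genes were low in library 2 of both days, and the sign of their day difference turned on which library was left out. Their mean log2 CPM over 23 genes tested was 7.42, 5.89 and 7.44 at day 2, against 8.11, 5.84 and 7.42 at day 1, and 8.18, 8.37 and 8.49 in CK leaves. The median difference between the days was -0.36 with all libraries, 0.28 without day 2 library 2, -1.09 without day 1 library 2, -0.40 without both and 0.25 without day 1 library 1. The light-harvesting protein CP29.2 (PchiChr4G116790), which passes light energy to photosystem II, had 535, 62.5 and 476 FPKM at day 2, against 1180, 76.5 and 524 FPKM at day 1, and 1640, 2130 and 2250 FPKM in CK leaves. Plastocyanin (PchiChr5G142240), the electron carrier to photosystem I, had 621, 83.9 and 712 FPKM at day 2, against 1300, 157 and 732 FPKM at day 1, and 1600, 1530 and 1590 FPKM in CK leaves. No gene of this list had days without overlap. In bulk tissue, fewer cells of a type and less RNA per cell cannot be told apart.

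Genes low in day 2 library 2 alone were fewer. The bark protein-like gene PchiChr10G280410 had 259, 23.3 and 537 FPKM at day 2, against 945, 234 and 119 FPKM at day 1, and 467, 1080 and 417 FPKM in CK leaves. The P450 gene CYP750C19 (PchiChr2G038390) had 51.3, 5.47 and 48.7 FPKM at day 2, against 72.8, 26.5 and 43.9 FPKM at day 1, and 74.2, 65.2 and 61.6 FPKM in CK leaves. The sesquiterpene synthase PchiChr5G131060 had 1680, 23.7 and 99.9 FPKM at day 2, against 461, 3440 and 259 FPKM at day 1, and 41.4, 236 and 20.2 FPKM in CK leaves. Its spread within each day exceeded the difference between the days, and that difference was 0.21 in log2 CPM without the libraries numbered 2.

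Jasmonate genes themselves had few members without overlap between the days. The 10 signalling genes, among them MYC2a, had 0 genes without overlap on log2 CPM and a median of 0.45, which was 0.21 without the libraries numbered 2. MYC2a had a log2 difference of 0.20 (SE 0.26, edgeR adjusted p = 0.967), although its FPKM values did not overlap. Jasmonate biosynthesis had a median of -0.03 over 11 genes with none without overlap. Jasmonate turnover, the list of enzymes that oxidise or conjugate the hormone, had 1 of 16 genes (6.25%) without overlap in each direction and a median of -0.22, which was -0.11 without both libraries, and DESeq2 called 1 of its genes higher. AP2/ERF factors, with 2 of 60 lower and 0 higher, and NAC factors, with 1 of 26 in each direction, had medians of -0.04 and 0.00. The bHLH factors had 3 of 26 genes (11.5%) higher without overlap and 0 lower, with a median of 0.25 that was -0.06 without day 1 library 2 and 0.06 without both. One of them, bHLH118-like (PchiChr7G199960), had 2.7, 3.1 and 1.99 FPKM at day 2, against 0.958, 1.03 and 0.472 FPKM at day 1, and 0.0, 0.496 and 0.0 FPKM in CK leaves. The gene PchiChr10G294840, described as Myc-type and not in the bHLH list, was lower at day 2 without overlap and had 10.7, 6.49 and 12.1 FPKM at day 2, against 19.3, 26.6 and 18.6 FPKM at day 1, and 16.3, 10.6 and 11.8 FPKM in CK leaves. These genes differed by 1.68 and -0.77 without the libraries numbered 2.

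Lists that mark other cell types differed between libraries as well, and their part in the results was not tested. Guard cell markers had a mean log2 CPM of 0.74, 0.72 and 0.73 at day 2, against 1.19, 0.88 and 1.90 at day 1, and 1.53, 1.2 and 1.78 in CK leaves. On this scale every day 2 library lay below every day 1 library, and 1 of the 7 genes (14.3%) was lower without overlap. On FPKM 0 of the 7 were lower without overlap. The summed FPKM also overlapped, at 22.8, 13.5 and 17.6 at day 2 against 22.3, 20.1 and 28.0 at day 1. The median difference of the 7 genes in log2 CPM was -0.48 and was -1.04 without both libraries numbered 2. The stomatal regulator FAMA (PchiChr9G266810) had 1.05, 1.28 and 1.59 FPKM at day 2, against 1.57, 2.51 and 3.24 FPKM at day 1, and 2.11, 1.91 and 2.55 FPKM in CK leaves. Woody tissue markers had a mean log2 CPM of 1.78, 1.04 and 0.48 at day 2, against 1.17, 2.22 and 0.14 at day 1, and -1.03, -0.31 and -0.95 in CK leaves. The highest value was in day 1 library 2. Reproductive and seed markers had a mean log2 CPM of 2.83 to 3.69 at day 2, against 3.23 to 3.65 at day 1, and 1.29 to 2.29 in CK leaves, with 0 of 49 genes higher and 1 lower at day 2 without overlap.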

How the data were processed

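PolyA RNA of leaves was sequenced in 9 libraries, 3 each of MeJA for 2 days, MeJA for 1 day and CK, grouped by the treatment labels. Reads were handled with fastp, HISAT2 and HTSeq, per the submitters' processing notes, which give no versions or settings. Genome build, annotation and strand setting: not given in the sources used here. Estimated counts and FPKM per gene and library were deposited by the authors. The deposited counts behave as estimated counts rounded up: 100% of 707 low counts lay between 0 and 1 above the value that FPKM implies (tolerance 0.05). They were used unaltered. How the deposited FPKM values were scaled is not stated. FPKM served for the levels printed. Gene names are the table's descriptions and were not tested here. Positions are the table's own, and the block is the number inside its chromosome names. Reads of near-identical copies, overlapping and antisense genes cannot be told apart.

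The test was the two-sided quasi-likelihood F test of edgeR 4.0.16 (R 4.3.3) with TMM scaling, on genes kept by filterByExpr (minimum count 10), in a fit of all 9 libraries with 1 mean per group, with Benjamini-Hochberg adjustment over 22384 genes and a threshold of 0.05. Log2 CPM used a prior count of 2. Alternatives were DESeq2 1.42.0, other size factors, no filter, limma 3.58.1 on log2(FPKM + 1) and log2(FPKM + 0.1), the 6 treated libraries alone, replicate blocks, and omission of each library and of both libraries numbered 2.

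Total counts of 48893949 to 58703021 per library set the counting precision. Lists were text patterns on descriptions, families by KEGG orthology or gene ontology, and 118 KEGG pathways with at least 10 tested genes. Some patterns were corrected after the descriptions were seen. The comparison, lists and genes were chosen with earlier results of these data known. Named genes were the 10 higher and 10 lower with the widest gap between the days and an informative description, the 2 widest per list, and the 8 highest and 8 lowest in library 2 of each day by the gap to the other treated libraries. The rule's group of called genes was empty. Genes called by DESeq2, the heat shock, photosynthesis and taxadiene synthase genes outside that rule, FAMA and the ACC oxidase were chosen after their values were seen. Not every gene under the rule is printed.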

Additional observations from a re-analysis of the deposited data

How the results depend on the processing

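edgeR and limma called 0 genes in either direction under every alternative run, with lowest adjusted p-values of 0.262 to 0.998, and DESeq2 alone made calls, 44 higher and 28 lower. The cause was not tested. Omission of single libraries gave 0 calls in each case (range 0 to 0), with 581 genes at an unadjusted p under 0.05 without day 2 library 2 and 1528 without day 1 library 3, beside 949 with all.

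Titles share replicate numbers between the groups, and no label says what a number marks. Deviations from the group means correlated across genes at 0.31, -0.02 and 0.26 for libraries 1, 2 and 3 of the days. For number 1 of either day against number 3 of the other, these correlations were -0.33 and -0.26. On log2 CPM, like numbers correlated across the days at 0.958, 0.795 and 0.959, and libraries within a day at 0.818 to 0.93. Numbers 1 and 3 were thus alike across the days, and number 2 was not. The main test did not pair the samples, and the source of this likeness was not tested. With the replicate number as a block edgeR called 0 genes higher and 0 lower, with 674 genes at an unadjusted p under 0.05 and a lowest adjusted p of 0.753. The common biological coefficient of variation of the fit was 0.574, and depth was not varied.

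As edgeR called nothing, there was no call to lose or to reverse. Of the values of named genes and lists under the alternatives, 126 moved by more than 1 SD between replicates. Medians of several lists changed sign with the libraries kept, among them nuclear photosynthesis, thaumatin-like proteins, WRKY factors, beta-glucosidases and the chromosome 1 oxidoreductases. Of the genes chosen by the rule for named genes, 16 passed the threshold under DESeq2 only. PchiChr8G227420, chosen outside that rule, did so as well.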
